A study of Homo sapiens with 12 samples.

Results

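The cytosolic ribosomal protein genes were followed in 12 RNA-seq libraries of a melanoma cell line. They were taken as the protein-coding genes of GENCODE 29 with an RPL or RPS symbol, together with RPLP0, RPLP1, RPLP2 and RPSA, and without the ribosomal S6 kinases, the mitochondrial ribosomal proteins and the pseudogenes. This gave 84 of the 35579 genes with a transcript in the data, of which 52 belong to the large subunit or are relatives of its genes and 32 to the small subunit or are relatives of its genes. None of the 84 was without a count, and 83 had enough counts to be tested. The exception was RPL10L.

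The cytosolic ribosome is built from ribosomal RNA and a set of proteins, nearly all present once, so the cell needs the proteins of both subunits in balance. Their mRNAs are short, very abundant and begin with a run of pyrimidines at the 5′ end, the terminal oligopyrimidine (TOP) tract, through which growth signals that pass by mTOR and LARP1 control their translation more than their amount. Ribosomal protein genes are also known for large numbers of processed pseudogenes, which resemble the mRNA closely.

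All 12 libraries came from WM-266-4, an established line of human melanoma cells, with a stable lentiviral knock-down of the receptor tyrosine kinase TYRO3, kept under puromycin, and the question was what TYRO3 and its cleavage by proteases change in the transcriptome. The cells were transfected with a pEZY-myc-his plasmid labelled GFP as the control, or with one for TYRO3. A figure legend of the study describes the control plasmid as empty. The TYRO3 plasmids encoded wild-type TYRO3 (WT), TYRO3 ΔGS or TYRO3 ΔADAM. ΔGS has the change I449A and resists cleavage by gamma-secretase. ΔADAM has the changes P408A, L409P and G419P and resists the ADAM proteases. The cells were then starved of serum overnight. Poly(A) RNA was sequenced in 3 experiments with 1 library of each group in each, so that every group held 3 libraries. Nothing says that these came from separate cultures, and the p-values then measure only the spread between these samples. Since 1 GFP library stood for the control in each experiment, the comparisons of WT, ΔGS and ΔADAM with GFP share their control libraries.

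The total of the estimated counts was 4008293 in the GFP library of experiment 1, and between 18365999 and 38184838 in the other libraries. Levels are given in TPM, which corrects for transcript length and scales each library to the same sum. TYRO3 lay between 27.7 and 36.4 TPM in the GFP libraries and between 640.5 and 1959 TPM in the 9 libraries with a TYRO3 plasmid and the log2 fold changes were 5.14 ± 0.27 (SE) with WT, 5.21 ± 0.27 with ΔGS and 4.92 ± 0.27 with ΔADAM by edgeR (adjusted p = 1.51e-05, 1.35e-05 and 1.46e-05), so the plasmid TYRO3 was far above the remaining TYRO3 of the knocked-down cells. The melanocyte genes MITF, SOX10, PMEL, MLANA, TYR and DCT were present in every library, CD3E reached at most 0.11 TPM and PTPRC 0.562 TPM, and the epithelial keratin gene KRT18 was present at 112 to 222 TPM while EPCAM reached at most 0.529 TPM. The GFP library of experiment 1 stood apart by its depth and the ΔGS library of experiment 3 by its ribosomal protein genes, as described below, and results that move with them are given without them as well.

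The start sites of the genes were searched for the pyrimidine tract, because it is the sequence feature that is thought to bind these mRNAs into 1 class. RefSeq start sites on GRCh38.p14 were available for 67 of the 84 genes, with 83 start sites in all. The 30 bases from 10 before the start were searched on the gene's strand for a C followed by at least 4 further C or T bases. Such a tract was found at 66 of the 83 start sites (79.5%), against 38.4% of all 35116 start sites in the same table. It covered the first transcribed base at 49 of the 83 (59%), against 7.19% of all start sites. A match is only a description of these letters. The windows below show members with a tract over the start, namely RPLP0 of the stalk, RPS6, RPS18 as the gene with the highest level, RPL21 as the only gene called in a comparison, RPL7A with a tract of 23 bases and RPL3 with one of 5 bases, and then 2 paralogs without a tract. Capitals mark the tract and the first transcribed base is the eleventh letter.
RPLP0 (chr12:120201092-120201121, minus strand): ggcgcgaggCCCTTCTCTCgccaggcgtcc
RPS6 (chr9:19380217-19380246, minus strand): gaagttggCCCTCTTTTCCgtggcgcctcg
RPS18 (chr6:33272065-33272094, plus strand): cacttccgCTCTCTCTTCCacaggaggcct
RPL21 (chr13:27251548-27251577, plus strand): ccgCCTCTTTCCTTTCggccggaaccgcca
RPL7A (chr9:133348208-133348237, plus strand): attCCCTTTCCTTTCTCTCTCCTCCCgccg
RPL3 (chr22:39319604-39319633, minus strand): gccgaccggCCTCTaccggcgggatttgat
RPL7L1 (chr6:42879606-42879635, plus strand): gtgcggcgccgtagctaggagcggacgcca
RPS27L (chr15:63157458-63157487, minus strand): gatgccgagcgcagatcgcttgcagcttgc

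By role, all 3 stalk genes, 33 of 35 other large subunit genes and 22 of 24 small subunit genes with a start site had a tract in a window. Among the paralogs it was found in 1 of 5, RPL22L1. The 8 genes with no tract in any window were RPL6, RPL17, RPS4X, RPS29 and the paralogs RPL10L, RPL26L1, RPL7L1 and RPS27L.

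The ribosomal protein genes were among the most abundant mRNAs of these cells. Of the 84 genes, 60 had a mean above 1000 TPM, and together they made up 10.8% to 16.1% of the TPM of a library. The highest was RPS18, a protein of the small subunit head, with a mean of 4084 TPM (range 3221 to 5728 over the 12 libraries). RPL41, the shortest protein of the ribosome, followed with 3543 TPM, then RPL19 with 3365 TPM, RPS2 with 2641 TPM and RPL37A with 2531 TPM. These 5 genes held 14.0% of the TPM of the 84. The ranges over the libraries of neighbours among these 5 overlapped.

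**Figure D1:**
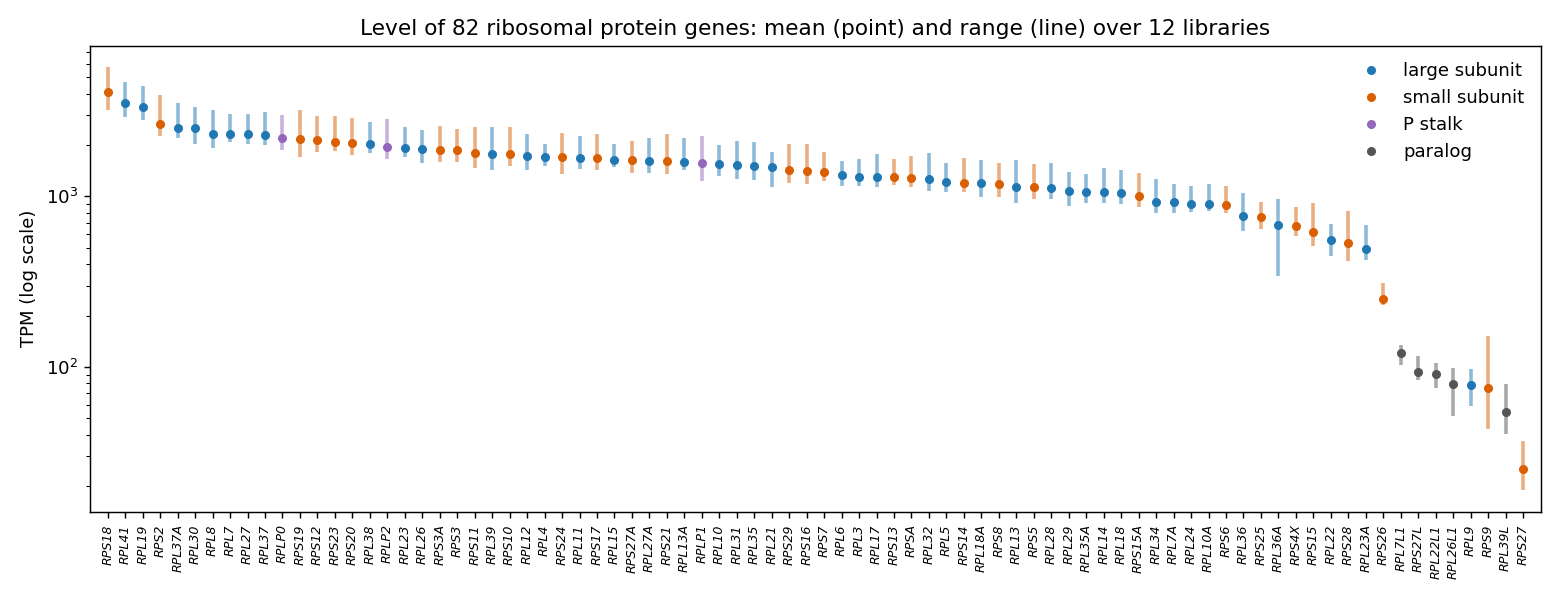
Mean level (point) and lowest to highest level (line) of 82 ribosomal protein genes over the 12 libraries, in TPM on a log scale, ordered by the mean and coloured by role. RPL3L and RPL10L, which had 0 counts in at least 1 library, are left out. The subunits intermix along the order from RPS18 at 4084 TPM downwards, and the paralogs lie at 120 TPM or less.

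The proteins of the stalk, which recruits the elongation factors to the large subunit, had means of 2202 TPM (RPLP0), 1952 TPM (RPLP2) and 1576 TPM (RPLP1). RPSA, a small subunit protein also known as the laminin receptor, had 1290 TPM, and RPS6, the substrate of the S6 kinases, had 893 TPM. RPL5 and RPL11, which bind the 5S RNA and can inhibit MDM2 when free, had 1207 and 1689 TPM. RPL3, which lies near the peptidyl transferase centre, had 1302 TPM, RPL10, which joins the large subunit late, had 1553 TPM, and RPS27A, made as a fusion with ubiquitin, had 1626 TPM. The 46 large subunit genes with the stalk, paralogs apart, summed to 1.54 to 1.655 times the TPM of the 31 small subunit genes. This ratio was lowest in the ΔGS library of experiment 3 and was 1.54 to 1.58 in the libraries of experiment 3 against 1.605 to 1.655 in those of experiments 1 and 2.

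The 5 expressed genes with the lowest means were RPS27 with 25.1 TPM, RPL39L with 54.5 TPM, RPS9 with 75.1 TPM, RPL9 with 78.4 TPM and RPL26L1 with 79.6 TPM. For RPS27, RPS9 and RPL9 the assignment of reads limits the value. The 1 protein-coding transcript of RPS27 in GENCODE 29 was listed at 0 counts in all 12 libraries, and its 1874 counts lay on 4 transcripts of other types. Of the counts of RPS9 and its copies together, 68.6% lay on copies of the gene on alternate haplotypes and patches outside the primary assembly, and of those of RPL9 and its pseudogenes, 65.5% lay on pseudogenes named after it. The same shares were 50% on copies for RPL7A and RPS25, and 37.1%, 32.9%, 26.8% and 14.2% on pseudogenes for RPL23A, RPL21, RPS28 and RPS2. The levels of these genes are therefore uncertain.

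Reads on transcripts that GENCODE types as retained intron, nonsense-mediated decay or processed transcript made up 10.6% to 13.3% of the counts of the 84 genes. They were highest in the shallow GFP library of experiment 1, and 10.6% to 11% in experiment 3 against 12.2% to 13.3% in experiment 1. A few genes held most of them. In RPL14 91.4% and in RPL4 78.3% of the counts lay on transcripts with a retained intron, and in RPL37 78% lay on processed transcripts. Overlapping transcripts of a gene divide the same reads, so these shares belong to the estimates and may not be those of the RNA.

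The 7 paralogs, which are related copies of other ribosomal protein genes, made up 0.381% of the TPM of the 84 genes. RPL3L, known from striated muscle, had at most 0.947 TPM, and RPL10L, known from testis, at most 0.261 TPM and 9 counts over all libraries. RPL22L1 held 12.3% to 19.03% of the TPM of the pair RPL22 and RPL22L1, with the highest share in the GFP library of experiment 1, where it had 134 counts. RPL7L1 held 3.24% to 5.96% of the pair with RPL7, with the lowest share in the ΔGS library of experiment 3. RPL26L1 held 3.19% to 4.61% and RPL39L 2.40% to 3.94% of their pairs. RPS27L, which is induced by p53, had 84.02 to 116.5 TPM, and its share of the pair with RPS27 is not given because RPS27 had no count on its coding transcript. None of the 6 paralogs tested was called in any comparison by the quasi-likelihood test of edgeR. At an unadjusted p under 0.05 there was 1 paralog, RPL26L1 with ΔGS against GFP, where 4022 of the 15098 genes tested were. No paralog was called by DESeq2 or limma.

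The 84 genes together held 3.83%, 3.46% and 4.12% of the counts of the GFP libraries of experiments 1, 2 and 3. They held 3.63%, 3.43% and 4.05% with WT, 3.48%, 3.73% and 4.399% with ΔADAM, and 3.57%, 3.46% and 5.70% with ΔGS. Experiment 3 had the highest share in each group, and the ΔGS library of experiment 3 exceeded every other library. Wilson 95% intervals, which cover counting error only and not the spread of cultures, were at widest 3.82% to 3.85% (GFP, experiment 1). Over the 3 libraries the share was 3.81% ± 0.332 (SD) with GFP, 3.70% ± 0.314 with WT, 4.24% ± 1.26 with ΔGS and 3.87% ± 0.474 with ΔADAM, and the groups overlapped.

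**Figure D2:**
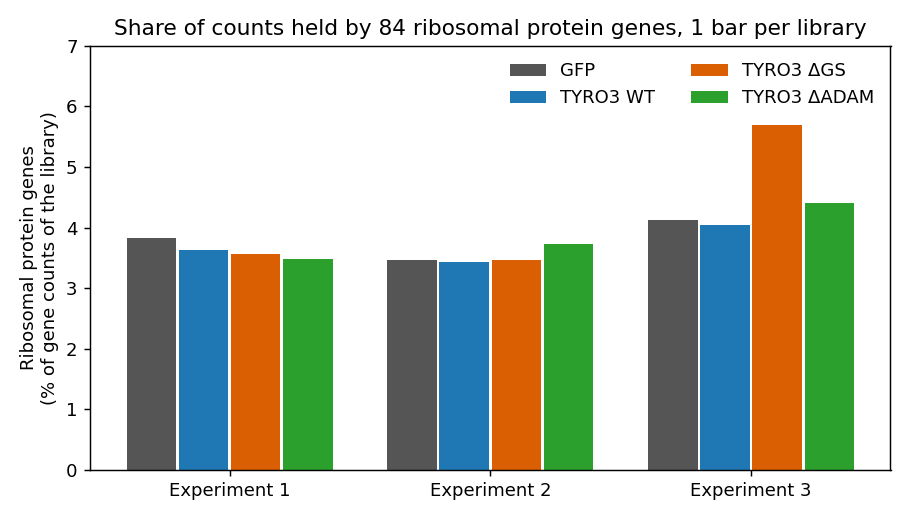
Share of the gene counts of each library held by the 84 ribosomal protein genes, in percent, for the 4 groups in each of the 3 experiments, 1 bar per library. All libraries lie between 3.43% and 4.399% apart from ΔGS in experiment 3 with 5.70%.

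The genes also differed between the experiments. Averaged over the 4 libraries, 83 of 83 genes were higher in experiment 3 than in experiment 2, with a median log2 difference of 0.40, while 48.3% of all genes tested were higher. Without the ΔGS library of experiment 3, 80 of 83 were higher and the median was 0.28. RPLP0 had means of 1271, 1196 and 1672 CPM, counts scaled by library size with no correction for length, in experiments 1, 2 and 3, RPS6 had 454, 425 and 546 CPM, and RPL5 had 660, 598 and 825 CPM. Among genes outside the family of at least 64 CPM and under 900 bases, the median difference of experiment 3 to experiment 2 was 0.30, and 0.20 without the ΔGS library. The genes with the largest spread between the experiments were RPS9 (36.96, 19.86 and 30.29 CPM), RPS28 (101, 105 and 154 CPM) and RPL39L (21.6, 17.3 and 25.3 CPM).

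The genes moved together from library to library. The log2 CPM of a gene over the 12 libraries correlated with the mean of the other members at a median r of 0.96 among the 77 genes that are not paralogs and were tested, and 66 of them were above 0.9. These points share library, depth and transcript length, so the correlation is a description. Their lowest values were 0.12 for RPS9, 0.54 for RPL21 and 0.58 for RPL9, which share reads with copies or pseudogenes. Among the 6 paralogs tested the median was 0.72, with the lowest values for RPL3L (0.01), which has few counts, and RPL7L1 (0.45).

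In the ΔGS library of experiment 3, 77 of the 83 genes had their highest level of all 12 libraries, against 22% of all genes tested. RPLP0 reached 2122 CPM there, against 1486, 1445 and 1634 CPM in the GFP, WT and ΔADAM libraries of the same experiment and 1191 to 1323 CPM in experiments 1 and 2. RPS2 reached 1910 CPM against 1362, 1237 and 1328 CPM, and RPLP1 reached 1066 CPM against 725, 653 and 763 CPM. The library thus lay above all others for these genes and for nearly the whole family. Against the GFP library of the same experiment, 81 of the 83 genes were higher with a median log2 ratio of 0.46, while 52.3% of all genes tested were higher. The exceptions were RPL7L1 (-0.08) and RPL3L (-0.54), the latter with 23 counts or fewer in every library. Genes with a tract over the start had a median log2 ratio of 0.48 (49 genes) and genes whose start sites lack it 0.42 (17 genes).

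Transcript length moved with this difference. The ribosomal protein genes had a median length of 716 bases, weighted by counts, against 2728 bases over all genes tested. In the ΔGS library of experiment 3 the members lay 0.48 (median log2) above the mean of the other 3 libraries of the experiment, and 145 genes outside the family under 900 bases and of at least 64 CPM lay 0.43 above it, 142 of them higher. Genes of 900 to 1500 bases lay 0.31 above, genes of 3000 to 6000 bases 0.16 below and genes over 6000 bases 0.45 below. The mean length of the transcript behind a count was 2978 bases in this library and 3332 to 3401 bases in the other libraries of experiment 3. The part of transcript length in the difference was not tested.

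The same measure was taken in the other libraries. In the GFP library of experiment 1 the members lay 0.17 above the other libraries of the experiment and the short genes outside the family 0.23 above. In the WT library of experiment 3 the members lay 0.24 and the short genes 0.22 below, and in the ΔADAM library of experiment 2 they lay 0.11 and 0.07 above. Members and short genes deviated in the same direction in every library except GFP of experiment 2, where they lay at -0.01 and 0.05.

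**Figure D3:**
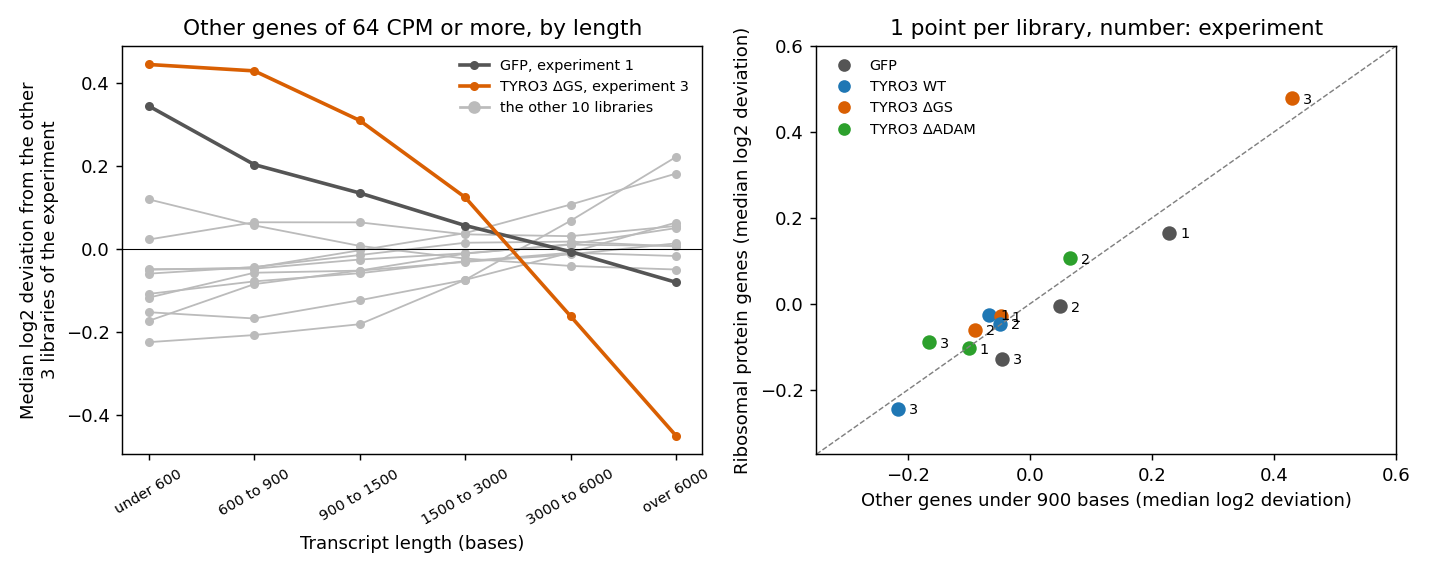
Left, median log2 deviation of each library from the other 3 libraries of its experiment for genes outside the family of at least 64 CPM, by transcript length, with GFP of experiment 1 and ΔGS of experiment 3 in colour. Right, the median log2 deviation of the ribosomal protein genes against that of other genes under 900 bases, 1 point per library with the number of the experiment, and the dashed line of equality. ΔGS of experiment 3 lies at 0.43 and 0.48, far from the other libraries.

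With WT TYRO3 no ribosomal protein gene was called. The differences were small and mostly downward, with a median log2 fold change of -0.10 (lower in 67 of 83 genes, range -0.27 to 0.53) against a median of -0.0025 over all genes. By the quasi-likelihood test of edgeR with a term for each experiment, 0 of 83 genes passed an adjusted p of 0.05 over all genes, where 541 of the 15098 genes tested (3.58%) did. At an unadjusted p under 0.05 there were 2 of the 83 genes, where 3241 of the 15098 genes tested were. DESeq2 and limma on log2 TPM called 0 members as well. Without the term for the experiment, or with a term for experiment 1 against the other two, 3 and 6 of all genes were called and 0 members.

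The 2 genes with the smallest p were RPS25 and RPL24. RPS25, a small subunit protein needed by some viral internal ribosome entry sites, had 206, 175 and 200 CPM with GFP and 153, 154 and 175 CPM with WT in experiments 1, 2 and 3. Every WT library was below its GFP library, and the groups just failed to overlap. Among the members only RPS25 and RPS26 lay wholly below GFP with WT, where 10.8% of all genes did. The log2 fold change was -0.27 ± 0.12 (SE; edgeR adjusted p = 0.208, range over the edgeR and limma alternatives 0.0640 to 0.627) and -0.15 without the GFP library of experiment 1, and 50% of the counts lie on a copy outside the primary assembly. RPL24, at the interface of the subunits, had 305, 239 and 301 CPM with GFP and 226, 219 and 254 CPM with WT, with groups that overlap. Its log2 fold change was -0.27 ± 0.12 (edgeR adjusted p = 0.227), and -0.13 without the GFP library of experiment 1.

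The WT library was below the GFP library in all 3 experiments for 54 of 83 genes, where 26.3% of all genes were, and above it in all 3 for 6 genes, where 24.1% of all genes were. The median log2 ratio of the members was -0.15, -0.04 and -0.09 in experiments 1, 2 and 3. On the TPM scale, log2(TPM + 1), it was 0.03, -0.01 and -0.01, beside medians of 0.11, 0.01 and 0.06 over all genes, and 35, 45 and 49 of the 83 genes were lower. The fitted median was 0.0059 without the GFP library of experiment 1 and 0.0049 with limma on log2 TPM, so neither was below 0. On the TPM scale the median of the members still lay below that of all genes in each experiment. The stalk genes were close to their controls, with log2 fold changes between -0.05 and 0.01.

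**Figure D4:**
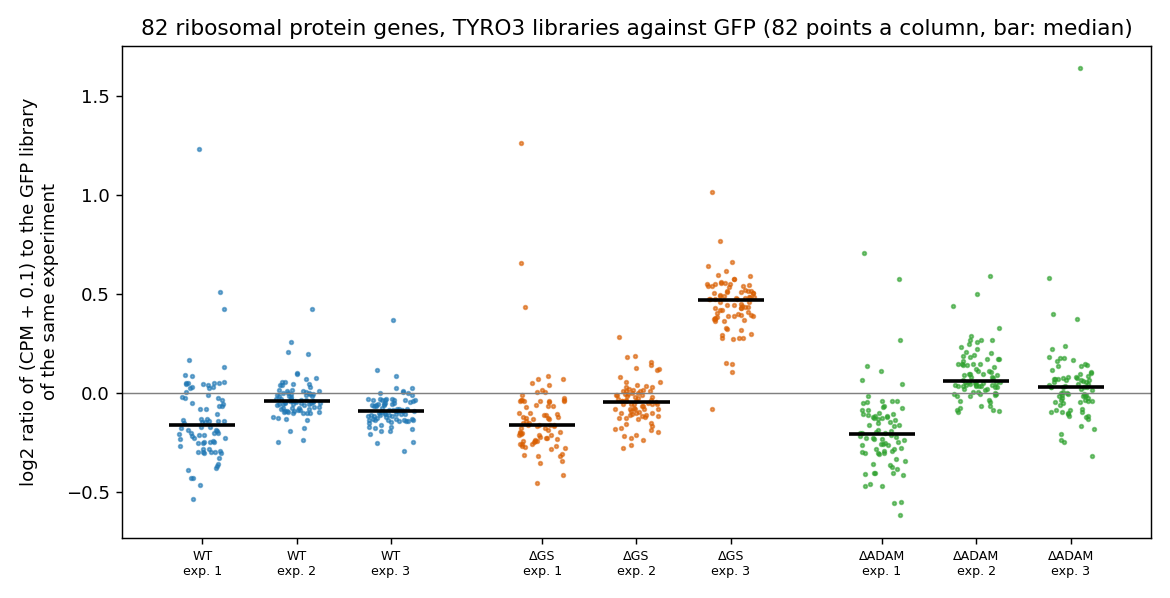
Log2 ratio of CPM + 0.1 of each ribosomal protein gene to the GFP library of the same experiment, for WT, ΔGS and ΔADAM in the 3 experiments. Each point is 1 gene, bars are medians, and RPL3L, with few counts, is left out. Over all 83 genes the medians of experiment 1 lie below 0 (-0.15, -0.16 and -0.20) and those of experiments 2 and 3 between -0.09 and 0.06, apart from ΔGS in experiment 3 at 0.46.

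With ΔGS TYRO3 no ribosomal protein gene was called either, although 70 of 83 were higher than with GFP. The median log2 fold change was 0.10 (range -0.12 to 0.55), and 0 of 83 genes passed an adjusted p of 0.05 by edgeR, where 1352 genes (8.95%) did. At an unadjusted p under 0.05 there were 5 of the 83 genes, where 4022 of the 15098 genes tested were. DESeq2 called RPL21 and RPL36A as higher, and limma called 0. Without the term for the experiment, or with a term for experiment 1 against the other two, edgeR called 4 and 80 of all genes and 0 members.

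On the CPM scale this direction came from 1 library. The median log2 ratio to GFP was -0.16 and -0.05 in experiments 1 and 2 and 0.46 in experiment 3. On the TPM scale, log2(TPM + 1), it was 0.02, 0.03 and 0.36, and 44, 50 and 80 of the 83 genes were higher. The TPM medians over all genes were 0.10, 0.03 and -0.07. Without the ΔGS library of experiment 3 the fitted median was -0.08 and 2 genes were called, both lower. They were RPL8 (log2 fold change -0.25 ± 0.07, edgeR adjusted p = 0.0476) and RPS15 (-0.34 ± 0.08, edgeR adjusted p = 0.0395). The same fit called RPL8 as lower with ΔADAM too (-0.21 ± 0.06, edgeR adjusted p = 0.0335), where 2702 of all genes were called. The ΔGS library of experiment 3 was set aside for high values of these same genes, so falls without it are no independent result. RPL8, of the large subunit, had 975, 895 and 1128 CPM with GFP and 785, 790 and 1460 CPM with ΔGS. RPS15, a protein of the small subunit head, had 178, 146 and 174 CPM with GFP and 130, 122 and 254 CPM with ΔGS. Both were below GFP in experiments 1 and 2 and above it in experiment 3. In all 3 experiments 5 of the 83 genes were higher, where 23.7% of all genes were, and 0 were lower, where 21.9% of all genes were.

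The 2 genes with the smallest p were RPL36A and RPL21. RPL36A had 93.0, 126 and 136 CPM with GFP and 147, 124 and 214 CPM with ΔGS, higher in experiments 1 and 3 and level in experiment 2. Its log2 fold change was 0.42 ± 0.13 (edgeR adjusted p = 0.0749, 0.0229 with DESeq2 and 0.0441 to 0.225 over the edgeR and limma alternatives), and 0.25 without the ΔGS library of experiment 3. The lowest value was that of the shallow GFP library of experiment 1. The readthrough gene RPL36A-HNRNPH2 overlaps it. RPL21 had a log2 fold change of 0.29 ± 0.10 (edgeR adjusted p = 0.0898), and 0.19 without the GFP library of experiment 3. With the counts of its pseudogenes added, the log2 fold change of RPL21 was 0.06 ± 0.12 (edgeR adjusted p = 0.790).

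With ΔADAM TYRO3 1 ribosomal protein gene was called, RPL21 as higher. The median log2 fold change over the family was -0.04 (33 genes higher and 50 lower, range -0.21 to 0.95). The 1 of 83 genes stood against 1537 of all genes tested (10.2%) by edgeR, and DESeq2 and limma on log2 TPM also called RPL21 alone among the members. In all 3 experiments 5 genes were higher, where 24.7% of all genes were, and 10 were lower, where 27.1% of all genes were. The median CPM ratio to GFP was -0.20, 0.06 and 0.03 in experiments 1, 2 and 3, and the fitted median was 0.07 without the GFP library of experiment 1. On the TPM scale, log2(TPM + 1), the median ratio was 0.04, 0.07 and 0.11, and 49, 65 and 69 of the 83 genes were higher. The TPM medians over all genes were 0.13, -0.01 and 0.05. Without the term for the experiment, or with a term for experiment 1 against the other two, 5 and 212 of all genes were called and 0 members.

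RPL21 lies on chromosome 13 from 27251309 to 27256691 on the plus strand and encodes a protein of the large subunit. It had 396, 315 and 331 CPM with GFP, 408, 428 and 496 CPM with ΔADAM, 407, 384 and 485 CPM with ΔGS and 410, 364 and 427 CPM with WT in experiments 1, 2 and 3. Every ΔADAM library was above every GFP library, while the difference in experiment 1 was small. The log2 fold change with ΔADAM was 0.36 ± 0.10 (edgeR adjusted p = 0.0446). It stayed between 0.25 and 0.49 when 1 library was left out, but no longer passed the test without any 1 of 10 of the 12 libraries, the exceptions being the GFP library of experiment 1 and the ΔGS library of experiment 3. The pseudogenes of RPL21 had the opposite order. They summed to 282, 201 and 295 CPM with GFP and to 136, 151 and 216 CPM with ΔADAM. With their counts added to RPL21 the sums were 678, 516 and 626 CPM with GFP and 544, 579 and 712 CPM with ΔADAM, and the log2 fold change was 0.0063 (SE 0.12, edgeR adjusted p = 0.987). Whether the reads belong to the gene or to its pseudogenes was not tested.

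**Figure D5:**
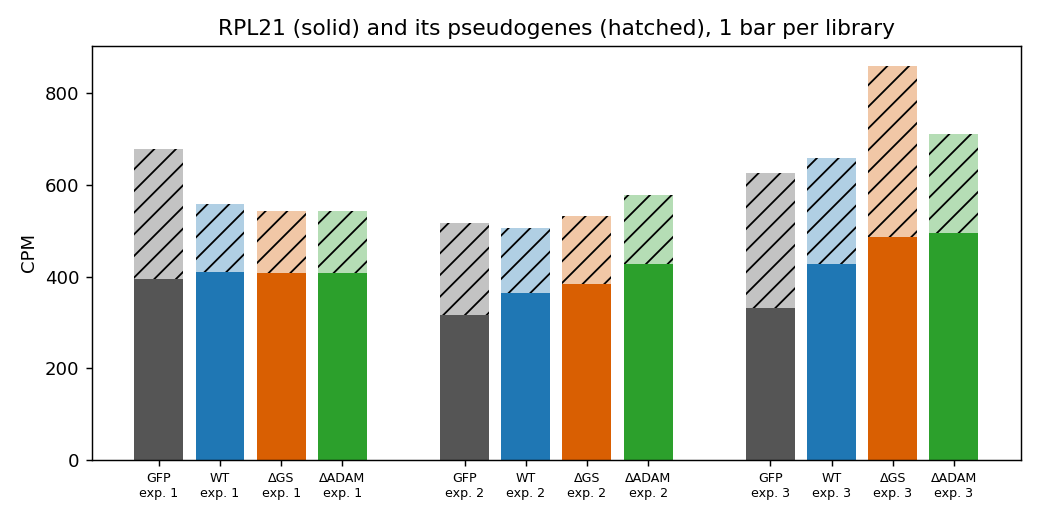
CPM of RPL21 (solid) and, stacked on it, of the pseudogenes named after it (hatched), 1 bar per library, grouped by experiment. The pseudogene part is larger with GFP (201 to 295 CPM) than with ΔADAM (136 to 216 CPM), and the summed bars of both groups overlap.

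RPS9, a small subunit protein that helps to set decoding accuracy, showed a similar dependence. It had 19.9, 17.7 and 18.3 CPM with GFP and 32.7, 25.1 and 57.1 CPM with ΔADAM, so that the groups did not overlap, with a log2 fold change of 0.95 ± 0.35 (edgeR adjusted p = 0.105). Its copies outside the primary assembly had 75.3, 58.6 and 76.6 CPM with GFP and 62.9, 59.9 and 58.5 CPM with ΔADAM. With these copies added, an alternative chosen after seeing the data, the log2 fold change was 0.15 ± 0.13 (edgeR adjusted p = 0.495). RPS9 was named after its values were seen, as were RPL8, RPS15 and the genes listed for their reads on copies.

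No ribosomal protein gene was called between the TYRO3 proteins. In WT against the mean of ΔGS and ΔADAM and in ΔGS against ΔADAM, 0 of 83 members and 0 of all genes (0%) passed an adjusted p of 0.05 by edgeR, and 0 members had an unadjusted p under 0.05, where 237 and 216 of all genes did. DESeq2 called 0 members and 5 and 1 of all genes, and limma called 0 in both. The median log2 fold change was -0.12 for WT against the mean of the variants, lower in 81 of 83, and 0.14 for ΔGS against ΔADAM, higher in 78 of 83. Without the ΔGS library of experiment 3 these medians were -0.03 and -0.05.

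For WT against both variants the smallest p belonged to RPL39 (log2 fold change -0.20 ± 0.10) and RPS27L (-0.20 ± 0.11), both with an edgeR adjusted p of 0.9997, and without the ΔGS library of experiment 3 they were -0.11 and -0.12. RPL39, which lines the exit tunnel, had 249, 246 and 312 CPM with WT, 273, 263 and 474 CPM with ΔGS and 245, 292 and 336 CPM with ΔADAM, and the groups overlapped. For ΔGS against ΔADAM it belonged to RPS24 (0.16 ± 0.09) and RPS26 (0.21 ± 0.12), with 0.03 and 0.02 without the ΔGS library of experiment 3. RPS26 also moved to 0.36 without the ΔGS library of experiment 2 and to 0.11 without the ΔADAM library of experiment 3. RPS26, at the exit of the mRNA channel, had 90.3, 78.2 and 120 CPM with ΔGS and 80.4, 88.9 and 78.3 CPM with ΔADAM, lower in 1 and higher in 2 of the experiments.

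The rest of the pathway was read from lists of the machinery around the ribosome, whose counts follow by edgeR. Of 18 translation genes of the TOP class, such as EEF1A1 and EEF2, 0 were called, with medians of -0.07, 0.0019 and -0.07 for WT, ΔGS and ΔADAM against GFP. Of 11 regulators of these mRNAs, among them MTOR, LARP1 and MYC, 0 were called, with medians of 0.05, -0.08 and 0.01.

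Of 32 ribosome assembly genes, 0 were called with WT, 2 rose with ΔGS and 1 rose with ΔADAM, beside 3.58%, 8.95% and 10.2% called over all genes. NOP58, a core protein of the box C/D snoRNPs, rose with ΔGS by 0.36 ± 0.09 on the log2 scale and the large subunit GTPase GNL2 by 0.29 ± 0.08, with edgeR adjusted p of 0.0317 and 0.0488. NIP7 rose with ΔADAM by 0.26 ± 0.07 (edgeR adjusted p = 0.0400). None of these genes was called with the other TYRO3 plasmids, but their log2 fold changes there were above 0 as well. They were 0.21 with WT and 0.29 with ΔADAM for NOP58, and 0.25 and 0.23 for GNL2. For NIP7 they were 0.21 with WT and 0.21 with ΔGS. The edgeR adjusted p of these values lay between 0.0586 and 0.191. Of 11 genes of RNA polymerase I, 1 rose, the upstream binding factor UBTF with ΔGS, by 0.34 ± 0.08 (edgeR adjusted p = 0.0289). Its log2 fold change was 0.29 with WT and 0.28 with ΔADAM (edgeR adjusted p = 0.0670 and 0.0505). These calls were lost with experiment 1 against the other two as the term in place of each experiment. Each was lost in 2 of the 7 alternatives that leave out no single library, this one among them. Of the 12 fits that left out 1 library, 8 lost the call of NOP58, 11 that of GNL2, 9 that of NIP7 and 5 that of UBTF.

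The mitochondrial ribosome is built from a separate set of nuclear proteins. Of 77 of its 78 genes that were tested, 1 fell with WT, 0 were called with ΔGS and 4 fell with ΔADAM, beside the same shares over all genes, with medians of -0.11, 0.02 and -0.12. The gene that fell with WT was MRPS25, by 0.47 ± 0.10 (edgeR adjusted p = 0.0376). Its log2 fold change with ΔGS was -0.37 ± 0.10 (edgeR adjusted p = 0.0511). With ΔADAM MRPL35 fell by 0.34 ± 0.08 on the log2 scale, MRPS25 by 0.45 ± 0.10 and MRPS5 by 0.31 ± 0.08, with edgeR adjusted p of 0.0219, 0.0236 and 0.0352. These 3 calls, too, were lost with experiment 1 against the other two as the term. Over the 7 alternatives that leave out no single library, MRPL35 and MRPS25 lost the call in 2 and MRPS5 in 3. The call of MRPS25 with WT was not followed through the alternatives. Of the 12 fits that left out 1 library, 4 lost the call of MRPL35, 4 that of MRPS25 and 7 that of MRPS5. MRPL35 had log2 fold changes of -0.25 with WT and -0.25 with ΔGS (edgeR adjusted p = 0.0899 and 0.0660). MRPS5 had -0.28 and -0.21 (edgeR adjusted p = 0.0754 and 0.119).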

How the data were processed

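Libraries were made from poly(A) RNA (TruSeq Stranded mRNA) and sequenced as 75-base read pairs. Per the submitters' processing notes FastQC 0.11.9, Trimmomatic 0.33 and kallisto 0.46.0 were used, with the transcripts of Ensembl 96 (GRCh38). The authors deposited 1 kallisto table per library with the estimated count and the TPM of each transcript, neither normalised between libraries. The deposited tables held no fold changes.

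Of 188753 transcripts, 169797 matched GENCODE 29 and were summed per gene, with copies outside the primary assembly kept apart. Estimated counts were rounded. CPM values use TMM-scaled totals. Genes passing filterByExpr (minimum count 10, minimum total 15) were tested in edgeR 4.0.16 (R 4.3.3) by the quasi-likelihood test with terms for group and experiment, fitted to all 12 libraries, with Benjamini-Hochberg adjustment over all 15098 genes tested and a threshold of 0.05. DESeq2 1.42.0 and limma 3.58.1 on log2(TPM + 1) served as alternatives, beside other scalings, filters, terms and library sets. Ratios within an experiment used log2(CPM + 0.1).

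The experiment number in the labels pairs the libraries. After removing group means, libraries of the same experiment correlated at a mean r of 0.291 (0.0384 to 0.529, 18 pairs) and others at -0.145 (36 pairs).

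The members and gene lists were chosen with earlier results of these data known. Named were fixed members of each role, the paralogs, the 5 highest and 5 lowest expressed genes, those with the largest spread between experiments, called genes or the 2 of smallest p in each comparison, and up to 3 called genes per other list. A further gene list is not reported here. Totals from 4008293 to 38184838 set the precision, which is lowest for GFP of experiment 1.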

Additional observations from a re-analysis of the deposited data

How the results depend on the processing

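The number of ribosomal protein genes called was 0 for WT against GFP, for WT against the mean of the variants and for ΔGS against ΔADAM under all alternatives tried. For ΔGS against GFP it was 0 and became 2 with DESeq2 and 1 (RPL36A) with no filter, and 0 to 2 when 1 library was left out: RPL21 without GFP of experiment 1, RPL36A without GFP or ΔGS of experiment 2, and RPL8 and RPS15, both lower, without ΔGS of experiment 3. For ΔADAM against GFP it was 1 (RPL21) and became 0 with TMM factors made without the ribosomal protein genes, with the pseudogene counts added, with experiments 2 and 3 only and with a fold change over 1.5 required as well, 2 with no filter (RPL21 and RPS9), and 0 to 2 when 1 library was left out. Without ΔGS of experiment 3, RPL21 was called as higher and RPL8 as lower. With only the GFP and ΔADAM libraries in the fit the 1 gene called was RPS9 in place of RPL21. The replicate block by experiment was part of the model, and without the replicate block, or with experiment 1 against 2 and 3, the ΔADAM count was 0. The calls among all genes for WT, ΔGS and ΔADAM were then 3, 4 and 5, or 6, 80 and 212, in place of 541, 1352 and 1537.

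The median log2 fold change for WT against GFP was -0.10, 0.0049 with limma on log2 TPM, and from -0.17 (without GFP of experiment 3) to 0.0059 (without GFP of experiment 1) when 1 library was left out. The other medians moved by less than their SD over the experiments. This SD was 0.33 for ΔGS against GFP and 0.28 for ΔGS against ΔADAM. Both include the ΔGS library of experiment 3, so the limit was wide, and both medians changed sign without that library. The median for ΔGS against GFP lay from 0.08 to 0.23 over the alternatives that leave out no single library. When 1 library was left out it lay from -0.08 (without ΔGS of experiment 3) to 0.20. That for ΔADAM against GFP lay from -0.05 to 0.08 and from -0.11 (without GFP of experiment 3) to 0.07 (without GFP of experiment 1). Among all genes, in the fits with the experiment term, limma and DESeq2, the WT calls ranged from 30 with only the compared groups fitted to 1390 with DESeq2, the ΔGS calls from 193 with experiments 2 and 3 only to 2022 with DESeq2, and the ΔADAM calls from 215 without ΔADAM of experiment 3 to 2702 without ΔGS of experiment 3. The cause was not tested. Depth limits RPL3L and RPL10L, and kallisto's division of reads limits the genes with copies or pseudogenes.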
